A study of Mus musculus with 8 samples.

Results

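Cd74, H2-Aa, H2-Ab1, H2-Eb1, H2-DMa, H2-DMb1 and Ciita, the core genes of major histocompatibility complex (MHC) class II antigen presentation in the mouse, were followed in 8 whole neuroblastomas. The members were a fixed list of names, matched by Ensembl identifier through GENCODE M21. All 7 were found among the 17488 genes of the expression table, and all 7 were among the 16157 genes with at least 1 CPM (counts scaled to library size) in at least 4 of 8 libraries. Only those 16157 genes were tested. The 7 members reached 1 CPM in all 8 libraries.

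Every tumour came from a mouse homozygous for TH-MYCN, a transgene in which the tyrosine hydroxylase promoter drives human MYCN in cells of the sympathetic lineage. Mice entered treatment at about 6 weeks of age with an intra-abdominal tumour of 200 to 300 mm3. The panobinostat group (n = 4) received 2 doses of 5 mg/kg given 24 h apart, and the vehicle group (n = 4) received vehicle on the same plan. Panobinostat is an inhibitor of histone deacetylases. Tumours were taken 4 h after the second dose, and each library held tumour cells and stroma of 1 animal. The strain is given only as TH-MYCN, so the MHC haplotype and the background of the animals are not stated. Class II genes are polymorphic, and a difference between the animals' alleles and the mm10 sequence could lower their read counts. This was not tested.

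MHC class II molecules are pairs of an alpha and a beta chain that carry peptides from the endosome to the cell surface, where CD4 T cells read them. The invariant chain, Cd74, fills the groove of new class II molecules and brings them to the endosome, where cathepsins trim it. H2-DM then exchanges its last fragment, CLIP, for a peptide. The genes are transcribed mainly in dendritic cells, macrophages and B cells, and interferon gamma can induce them in other cells. CIITA, the class II transactivator, does not bind DNA itself. It joins RFX, CREB and NF-Y factors that sit on the X and Y boxes of class II promoters.

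Matches to the X and Y boxes are shown for 4 class II chain genes. H2-Aa and H2-Eb1 are members, and H2-Ob and H2-Eb2 are further class II chain genes. RefSeq promoter windows (build GRCm38.p6, the 250 bases before the start) were searched on both strands for the X1 core GCAAC, the X2 core CGTCA and the Y core ATTGG. An X1 core followed on the same strand by a Y core, with 20 to 36 bases between them, was found in 238 of 32851 windows (0.724%). Single cores were common: the X1 core was in 29.9%, the X2 core in 17.8% and the Y core in 33.8% of windows. Each sequence below runs 5′ to 3′ along the gene's own strand, with the matched cores in capitals.
H2-Aa: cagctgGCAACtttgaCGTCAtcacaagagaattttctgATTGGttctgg
H2-Eb1: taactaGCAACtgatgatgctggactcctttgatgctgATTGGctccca
H2-Ob: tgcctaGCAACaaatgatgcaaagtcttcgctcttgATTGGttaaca
H2-Eb2: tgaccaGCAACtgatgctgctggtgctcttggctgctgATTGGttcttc
These lie at chr17:34287861-34287910 (minus strand) for H2-Aa, chr17:34305770-34305818 (plus strand) for H2-Eb1, chr17:34238812-34238858 (plus strand) for H2-Ob and chr17:34325537-34325585 (plus strand) for H2-Eb2. The X1 and Y cores are 28 bases apart in H2-Aa, 27 in H2-Eb1, 25 in H2-Ob and 27 in H2-Eb2. H2-Aa alone of these 4 windows also holds the X2 core, between its X1 and Y cores. H2-Oa holds the same X1 and Y arrangement. H2-DMb1 holds it with GTAAC in place of the X1 core, a variant chosen after the sequences were seen that occurs in 104 windows (0.317%). Neither window of H2-DMa and not that of H2-DMb2 held the arrangement. For the members Cd74, H2-Ab1 and Ciita no window was available, so sharing among the members is not shown. A match describes letters in a window and is no measure of binding.

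Sequencing depth was similar across libraries. Summed over the listed genes, vehicle libraries held 22055658 to 23830026 reads and panobinostat libraries 18664066 to 22235545, so that 1 CPM was worth 19.3 to 22.6 reads. Of 8 neuroblast marker genes, 6 fell with panobinostat and 2 were not called. Genes of neighbouring organs were higher with panobinostat, in unlike libraries. The 6 liver genes summed to 146, 152, 876 and 8102 CPM in panobinostat libraries 1 to 4 and 7.13 to 61.1 CPM with vehicle, and the 6 adrenal cortex genes to 713, 38.6, 1004 and 2726 CPM against 8.72 to 11.2 CPM. Of the liver reads, Cyp2e1 gave 1318 of 1383 in vehicle library 1. It gave 2694 of 3257 and 2685 of 2929 in panobinostat libraries 1 and 2. The 6 pancreas genes were high in panobinostat libraries 2 (388 CPM) and 4 (2424 CPM), and the 3 kidney genes in library 3 (769 CPM). Of 6 genes of tissue handling, 5 rose with panobinostat, and their summed level was 107 to 179 CPM with vehicle and 237 to 299 CPM with panobinostat. The part of organ tissue and of handling in the class II values was not tested.

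Vehicle library 1 stood apart from the other vehicle libraries for leukocyte genes and for some others. The summed level of 8 B-cell genes was 41.0 CPM in it, 6.27 to 6.43 CPM in vehicle libraries 2 to 4 and 12.8 to 20.3 CPM with panobinostat. Cd22 gave 218 of 371, 318 of 386, 227 of 268 and 217 of 398 of the B-cell reads in panobinostat libraries 1 to 4. With vehicle it gave 225 of 928, 69 of 128, 96 of 145 and 98 of 134. The 8 T-cell genes summed to 42.1 CPM in it, 11.9 to 20.8 CPM in vehicle libraries 2 to 4 and 31.0 to 54.4 CPM with panobinostat. Cd4, which mouse macrophages can also express, gave most of the panobinostat reads: 576 of 761, 942 of 1050, 572 of 649 and 528 of 712. With vehicle it gave 397 of 954, 88 of 242, 155 of 285 and 274 of 440. The higher sums with panobinostat therefore do not show a rise of either list as a whole. The 8 fibroblast and mural genes summed to 4674 CPM in it and 1377 to 1880 CPM in vehicle libraries 2 to 4. The liver genes summed to 61.1 CPM against 7.13 to 11.2 CPM, mostly through Cyp2e1 (1318 reads against 141, 57 and 70). Alb, another liver gene, had 39 reads in it against 64, 107 and 53. The 7 class II members also stood higher in vehicle library 1, at 424 CPM. They were at 89.0 to 124 CPM in vehicle libraries 2 to 4 and 563 to 883 CPM with panobinostat. The share of class II reads in that library that came from lymphocytes was not tested. The members' changes and the lists' medians are given with and without it.

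**Figure D1:**
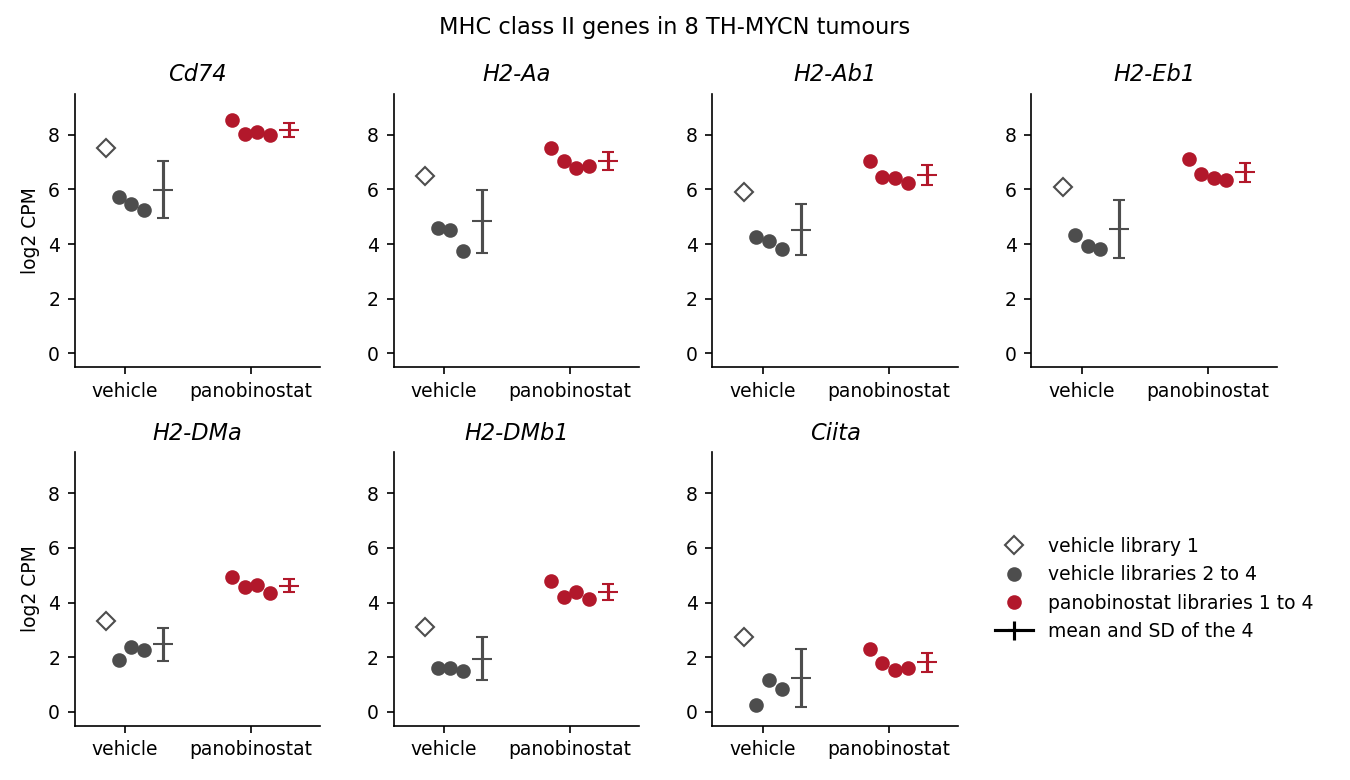
Log2 CPM (vertical axis) of the 7 class II genes in each of the 4 vehicle and 4 panobinostat libraries; each point is 1 library and the horizontal bars are group means. For 6 genes every panobinostat point lies above every vehicle point, while for Ciita vehicle library 1 (2.72) lies above all 4 panobinostat points (1.53 to 2.31).

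Panobinostat-treated tumours held more transcript of all 3 classical class II chain genes, of the invariant chain and of both H2-DM chains, by 3.98-fold to 5.38-fold. Ciita was not called. Of all tested genes 31.2% were called higher and 32.4% lower, so the 6 of 7 members called higher stand beside a background of 31.2%. The median log2 change was 2.15 over the 7 members and -0.02 over all tested genes. For 6 of 7 members the 4 panobinostat values lay above all 4 vehicle values, an arrangement found for 28.5% of tested genes. Of all tested genes 9.61% had a log2 change at least as high as the lowest of these 6. In bulk tumour RNA, more cells that express a gene and more RNA per cell cannot be told apart.

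H2-Aa encodes the alpha chain of I-A, the class II molecule of most laboratory mice. It lies on the minus strand of chromosome 17 at 34282744 to 34287823 (mm10). Its level in log2 CPM was 6.47, 4.60, 4.50 and 3.74 in vehicle libraries 1 to 4 and 7.50, 7.02, 6.79 and 6.84 in panobinostat libraries 1 to 4, where the reads numbered 4037, 2512, 2313 and 2249. The groups did not overlap, but vehicle library 1 came close to the lowest panobinostat library. On the log2 CPM scale the change was 2.21 (SE 0.49), or 4.63-fold (adjusted p = 0.00345, limma with Benjamini-Hochberg adjustment, as for all adjusted p of genes here).

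H2-Ab1 encodes the beta chain that pairs with H2-Aa, and lies on the plus strand at 34257689 to 34269419. It had 1359, 390, 393 and 300 reads with vehicle and 2911, 1672, 1776 and 1462 with panobinostat. The lowest panobinostat library held little more than vehicle library 1 and well above the other vehicle libraries. The log2 change was 1.99 (SE 0.41, 3.98-fold, adjusted p = 0.00227). H2-Eb1, the beta chain of I-E, lies on the plus strand at 34305867 to 34316674. It had 1554, 405, 345 and 295 reads with vehicle and 3113, 1809, 1797 and 1605 with panobinostat. The pattern over libraries was that of H2-Ab1, and the log2 change was 2.07 (SE 0.46, 4.21-fold, adjusted p = 0.00333).

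Within each library the I-A chains kept a similar proportion. For every 100 H2-Ab1 reads there were 94.0 to 148 H2-Aa reads with vehicle and 130 to 154 with panobinostat. The log2 ratio of H2-Aa to H2-Ab1 differed by 0.22 between groups (two-sided exact permutation p = 0.143, adjusted p = 0.238 over the 5 ratios examined). For H2-Eb1 to H2-Ab1 the difference was 0.08 (exact permutation p = 0.400, adjusted p = 0.400). Without vehicle library 1 these differences were 0.31 and 0.14. Neither ratio differed beyond the spread of libraries, which does not show that the chains changed equally.

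Cd74 encodes the invariant chain and lies on chromosome 18 at 60803848 to 60812652 on the plus strand. It had 4103, 1082, 1002 and 809 reads with vehicle and 8233, 4983, 5699 and 4933 with panobinostat. Every panobinostat library was above vehicle library 1, which in turn was far above the other vehicle libraries. The log2 change was 2.16 (SE 0.43, 4.47-fold, adjusted p = 0.00191). There were 255 to 302 Cd74 reads per 100 H2-Ab1 reads with vehicle and 283 to 337 with panobinostat, a log2 difference of 0.17 (exact permutation p = 0.0857, adjusted p = 0.214), and of 0.21 without vehicle library 1.

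H2-DMa and H2-DMb1 encode the alpha chain and a beta chain of H2-DM, the peptide editor of the endosome. H2-DMa (chromosome 17, plus strand, 34119541 to 34139101) had 227, 76, 117 and 102 reads with vehicle and 683, 459, 516 and 398 with panobinostat. H2-DMb1 (plus strand, 34153072 to 34160230) had 196, 61, 68 and 59 reads with vehicle and 617, 357, 438 and 342 with panobinostat. In both genes the lowest panobinostat library held more reads than vehicle library 1. The log2 change was 2.15 (SE 0.29, 4.43-fold, adjusted p = 1.90e-04) for H2-DMa and 2.43 (SE 0.36, 5.38-fold, adjusted p = 3.38e-04) for H2-DMb1. For every 100 H2-DMb1 reads there were 116 to 173 H2-DMa reads with vehicle and 111 to 129 with panobinostat, a log2 difference of -0.28 (exact permutation p = 0.200, adjusted p = 0.25), and of -0.39 without vehicle library 1. H2-DMa overlaps Brd2 on the other strand, and whether counting used strand is not given in the sources used here. Brd2, a BET-family reader of acetylated histones, went the other way, with a log2 change of -0.81 (SE 0.11, adjusted p = 2.04e-04).

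Ciita lies on chromosome 16 at 10480059 to 10528418 on the plus strand. It had 149, 24, 50 and 37 reads with vehicle and 110, 67, 60 and 60 with panobinostat, a small count beside those of its targets. All 4 panobinostat libraries were above vehicle libraries 2 to 4 and below vehicle library 1, so the groups overlapped. The log2 change was 0.57 (SE 0.48, adjusted p = 0.320), a fold of 1.49 with a 95% interval of 0.701 to 3.16. Without vehicle library 1 the log2 change was 1.07 (SE 0.31, adjusted p = 0.0142) and Ciita was called. With quantile normalization it was -0.08. Ciita overlaps Dexi on the other strand, which rose by a log2 change of 0.61 (SE 0.18, adjusted p = 0.0156).

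There were 2.22 to 4.99 Ciita reads per 100 Cd74 reads with vehicle and 1.05 to 1.34 with panobinostat, and the groups did not overlap. The log2 ratio was -4.75 ± 0.52 with vehicle and -6.33 ± 0.16 with panobinostat (mean ± SD, n = 4 each), a difference of -1.59 (exact permutation p = 0.0286, two-sided, which no split of 8 libraries into 4 and 4 can go under, with 70 such splits; adjusted p = 0.143 over the 5 ratios). The difference was -1.83 to -1.44 when each library was left out in turn. The ratio of vehicle library 1 lay among those of the other vehicle libraries. Cd74 itself rose by a log2 change of 2.16, while the median over all tested genes was -0.02. A fall relative to Cd74 is thus the common state and is not particular to Ciita. The share of all genes without overlap on this scale was not computed.

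Per kilobase of annotated exon, the order of the mean levels was the same in both groups. Cd74 was highest, at 47.2 ± 40.7 CPM per kb with vehicle and 171 ± 32.6 with panobinostat (mean ± SD, n = 4). H2-Eb1 followed at 15.1 ± 13.5 and 51.6 ± 13.7. Next came H2-Ab1 at 10.8 ± 8.43 and 36.6 ± 9.65, and H2-Aa at 9.80 ± 9.12 and 35.3 ± 8.51. H2-DMb1 was at 2.59 ± 1.70 and 12.6 ± 2.73 and H2-DMa at 1.72 ± 0.81 and 7.20 ± 1.24. Ciita was lowest, at 0.307 ± 0.259 and 0.376 ± 0.098 CPM per kb. With panobinostat, neighbours in this order differed by more than the larger of their SDs, except H2-Ab1 and H2-Aa. With vehicle, where library 1 was the highest of 4 for every member, only H2-DMa and Ciita did. The order depends on the length of all annotated exons, 3798 bases for H2-Aa, 2568 for H2-Ab1, 1944 for H2-Eb1 and 9535 for Ciita. By mean CPM alone, H2-Aa (37.2 with vehicle, 134 with panobinostat) was above H2-Eb1 (29.4 and 100) and H2-Ab1 (27.7 and 94.1). H2-DMa (5.94 and 24.8) was then above H2-DMb1 (4.36 and 21.1).

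Without vehicle library 1 all 7 members were called higher, against 31.5% of tested genes, and all 7 had groups that did not overlap, an arrangement found for 31.8% of tested genes with these 7 libraries. The log2 changes of the 6 genes were then 2.43 (H2-DMa) to 2.82 (H2-DMb1), with Cd74 at 2.66 (SE 0.17, adjusted p = 8.42e-06). Without that library and panobinostat libraries 3 and 4, which held the most liver reads, all 7 were again called, against 24.9% of tested genes. Cd74 was then at 2.78 (SE 0.22, adjusted p = 2.89e-04) and Ciita at 1.31 (SE 0.42, adjusted p = 0.0337).

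Ptprc and macrophage markers moved with the class II genes. So did markers of fibroblasts and mural cells, which mostly do not express class II. With all 8 libraries, endothelial and neutrophil markers mostly did not. Of 6 endothelial genes 1 was then called higher, with a median log2 change of 0.59. That gene was Tek, whose call was lost when any of 6 libraries was left out. Without vehicle library 1, 3 of the 6 endothelial genes were called higher, with a median of 0.92. Of 2 neutrophil genes tested 0 were called, with a median of -0.14. All 8 fibroblast and mural genes rose, with a median log2 change of 2.56 (2.94 without vehicle library 1), and summed to 1377 to 4674 CPM with vehicle and 8157 to 14687 CPM with panobinostat. Ptprc, which encodes the leukocyte antigen CD45, was at 49.3 CPM in vehicle library 1, 11.5 to 22.2 CPM in vehicle libraries 2 to 4 and 77.9 to 106 CPM with panobinostat. All 10 macrophage genes rose, with a median log2 change of 2.31 (2.46 without vehicle library 1), and their summed level was 363 to 687 CPM with vehicle and 1650 to 2826 CPM with panobinostat. Among them, C1qa, a chain of complement C1q, rose by 2.52 (SE 0.20, adjusted p = 1.19e-05) and Cd68, a lysosomal protein of macrophages, by 2.25 (SE 0.18, adjusted p = 1.36e-05). No macrophage marker was at 0 reads in any library.

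Of the listed dendritic-cell genes 8 had values, 6 were tested and 3 rose, among them Batf3, whose call was lost without vehicle library 2 or panobinostat library 2 or 3. The 8 genes had a summed level of 19.9 to 34.0 CPM with vehicle and 86.2 to 99.6 CPM with panobinostat. Itgax, the CD11c integrin chain, rose by a log2 change of 2.48 (SE 0.22, adjusted p = 1.96e-05), and Zbtb46, a factor of classical dendritic cells, by 2.15 (SE 0.20, adjusted p = 2.53e-05). The defining receptors Flt3 and Xcr1, both chosen after their values were seen, did not follow. Flt3 was at 0.18 (SE 0.29, adjusted p = 0.610). Xcr1 had 10 to 18 reads with vehicle and 8 to 12 in treated tumours. Siglech and Clec9a, also chosen so, were higher with panobinostat than in vehicle libraries 2 to 4. Siglech had 57, 13, 11 and 3 reads with vehicle and 52, 29, 36 and 64 with panobinostat. It was not called (adjusted p = 0.0516), but was called without vehicle library 1 (adjusted p = 0.0027). Clec9a, not tested, had 31, 6, 4 and 1 reads with vehicle and 20, 15, 10 and 22 with panobinostat. Without vehicle library 1, 4 of the 6 tested genes were called higher and 0 lower. Of 8 B-cell genes only 2 passed the filter: Cd22 rose (1.21, SE 0.33, adjusted p = 0.0101) and Cd79a was at -0.10 (SE 0.86, adjusted p = 0.929). Of 8 T-cell genes 2 passed: Cd4, which mouse macrophages can also express, rose (1.77, SE 0.42, adjusted p = 0.00481) and Lck, a T-cell kinase, fell (-1.31, SE 0.24, adjusted p = 0.00122). Lck had 207, 121, 108 and 124 reads with vehicle. Cd3e, chosen after its value was seen and not tested, had 54, 4, 2 and 5 there and 23, 10, 3 and 23 with panobinostat. The fall of Lck is therefore not read as a fall of T cells. The part of each cell type in the class II values was not tested.

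**Figure D2:**
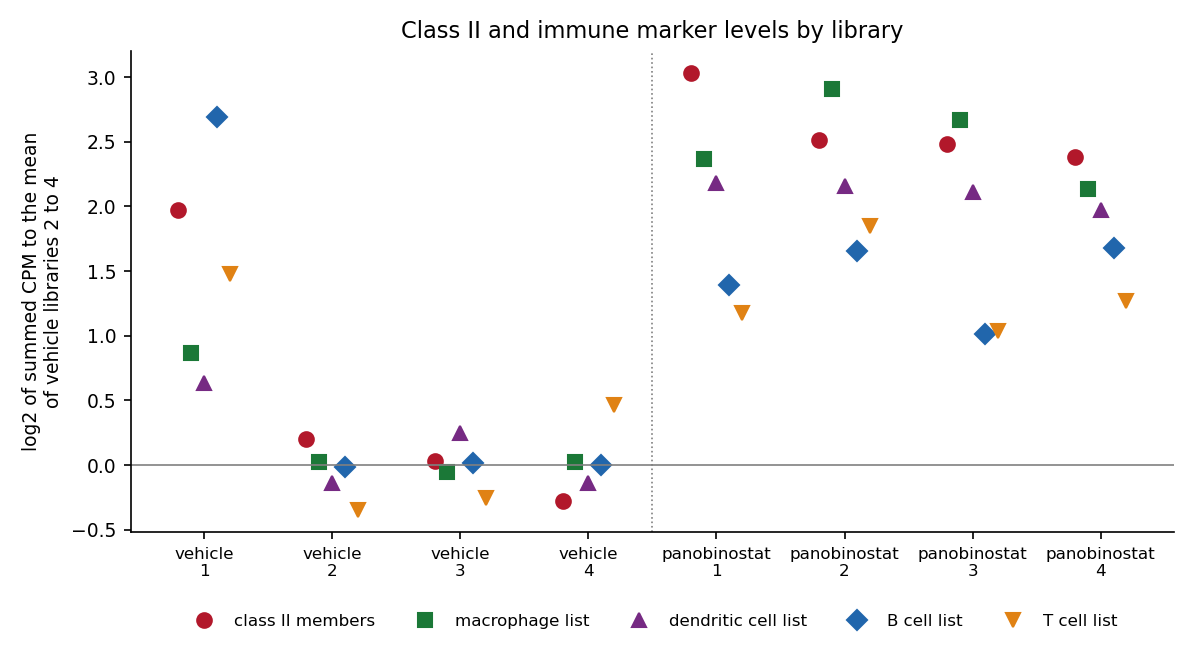
Summed CPM of the 7 class II genes and of the macrophage, dendritic-cell, B-cell and T-cell marker lists in each library. Values are log2 relative to the mean of vehicle libraries 2 to 4, and each point is 1 library. Vehicle library 1 stands above the other vehicle libraries for all lists, by 2.69 for the B-cell list and 1.98 for the class II genes. With panobinostat, Cd22 gave most reads of the B-cell list and Cd4 most reads of the T-cell list.

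Set against these markers, the class II genes other than Ciita no longer differed beyond the spread of libraries. Relative to Ptprc in the same library, the log2 changes of the 6 genes were -0.17 to 0.26, with 95% intervals that together span -1.23 to 1.30, and none was called (adjusted p = 0.653 to 0.993). Relative to the mean of the 10 macrophage genes they were -0.24 to 0.20, with bounds from -0.94 to 0.93, and none was called (adjusted p = 0.525 to 0.962). These intervals allow changes of either direction. The median of all tested genes was -2.19 on the first scale and -2.25 on the second, where 1.71% and 1.83% of genes were called higher and 78.6% and 83.4% lower. The same reference values were taken from every gene, so the genes share the error of the reference. Intervals, adjusted p and shares called on these scales, those of Ciita included, may therefore be too confident.

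For every 100 Ptprc reads there were 367, 330, 200 and 333 Cd74 reads in vehicle libraries 1 to 4 and 349, 252, 279 and 323 in panobinostat libraries, so that the groups overlapped and vehicle library 1 no longer stood apart. Ciita differed in this respect: it had 13.3, 7.32, 9.98 and 15.2 reads per 100 Ptprc reads with vehicle and 4.66, 3.39, 2.94 and 3.92 with panobinostat, with no overlap. Its change was -1.59 relative to Ptprc (SE 0.56, adjusted p = 0.00582) and -1.66 relative to the macrophage mean (SE 0.43, adjusted p = 8.09e-04). Most genes were called lower on both scales, so this call of Ciita is the background state and is not particular to it. Without vehicle library 1 the 6 genes were at -0.14 to 0.25 relative to Ptprc and -0.03 to 0.35 relative to the macrophage mean, none of them called, and Ciita at -1.50 and -1.40.

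**Figure D3:**
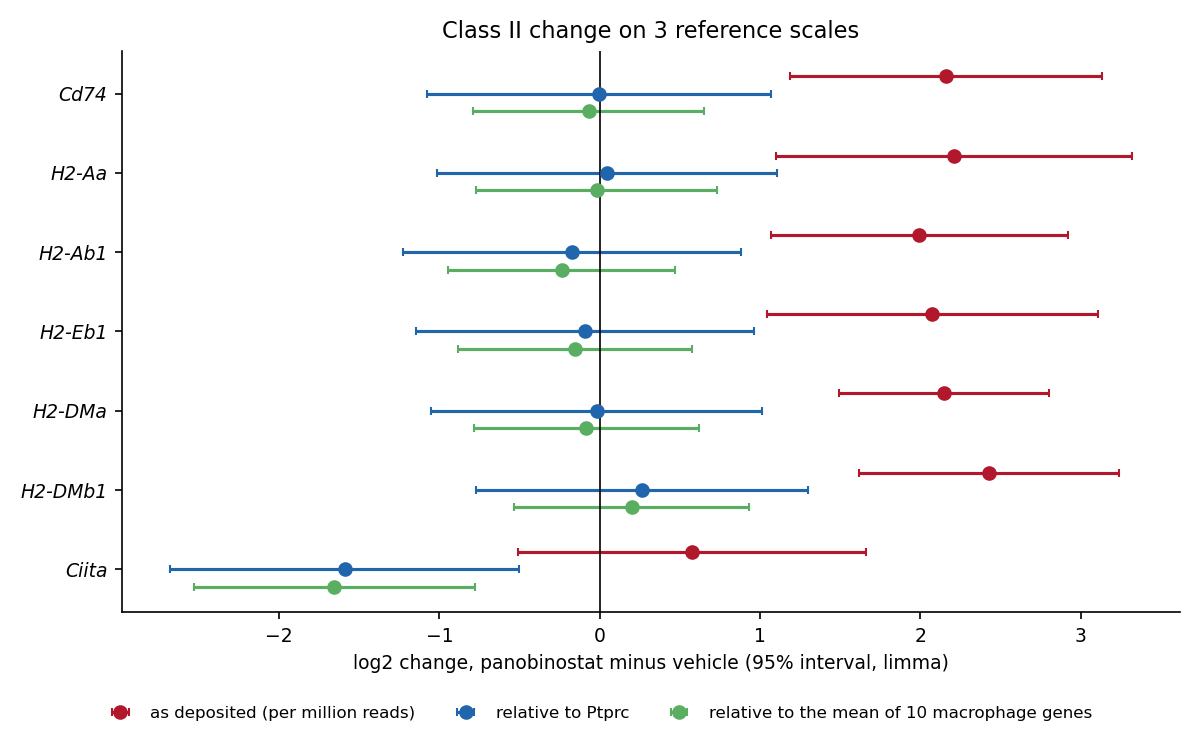
Log2 change with panobinostat of the 7 class II genes with 95% intervals, on the scale of library size, relative to Ptprc and relative to the mean of 10 macrophage genes (horizontal axis, log2). For 6 genes the change of 1.99 to 2.43 on the first scale lies near 0 on the other scales, and Ciita moves from 0.57 to -1.59 and -1.66.

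The further class II chain genes had few reads. H2-Ob, the beta chain of H2-O, an inhibitor of H2-DM known from B cells and dendritic cells, had 150, 5, 5 and 6 reads with vehicle and 98, 78, 80 and 76 with panobinostat. Vehicle library 1 was above every panobinostat library and the other vehicle libraries were near 0. Its log2 change was 2.74 (SE 0.95, adjusted p = 0.0303), and 3.90 without vehicle library 1. The call was lost when any of the other 7 libraries was left out (2.31 to 3.90 over all 8, largest adjusted p = 0.0841). H2-Ob reached 1 CPM in vehicle library 1 and the 4 panobinostat libraries alone, so it passed the filter mainly where it was high. H2-Oa, its partner, had 39, 1, 2 and 1 reads with vehicle and 28, 17, 18 and 22 with panobinostat and was too low to be tested. H2-DMb2, a further H2-DM beta chain closely similar to H2-DMb1, had 117, 24, 20 and 12 reads with vehicle and 97, 63, 60 and 90 with panobinostat. Reads shared between these copies could be counted to either gene or dropped. The log2 change of H2-DMb2 was 1.46 (SE 0.60, adjusted p = 0.0556), and 2.11 (adjusted p = 5.10e-04) without vehicle library 1. H2-Eb2 had 24, 1, 4 and 2 reads with vehicle and 35, 17, 9 and 31 with panobinostat and was not tested. H2-Ea-ps was not analysed here.

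The factors that hold CIITA on the X and Y boxes did not rise as a group. Of 7 genes of this complex 1 rose, 2 fell and 4 were not called, with a median log2 change of -0.38 (-0.32 without vehicle library 1). These counts stand beside 31.2% of all tested genes called higher and 32.4% called lower, and do not set the complex apart. The NF-Y subunits changed in unlike ways: Nfyc fell by 1.66 (SE 0.15, adjusted p = 2.09e-05) and Nfyb by 0.90 (SE 0.10, adjusted p = 5.76e-05) on the log2 scale, while Nfya rose by 0.67 (SE 0.24, adjusted p = 0.0363). The call of Nfya was lost without vehicle library 1 (0.58, adjusted p = 0.0801), vehicle library 2 or any panobinostat library. Rfx5, Rfxap, Rfxank and Creb1 were at -0.39 to 0.22. The number called was between 2 and 7 over the alternatives run.

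Several genes upstream of Ciita rose. Of 8 tested genes of the interferon gamma route 6 rose and 2 were not called, with a median of 0.88 (1.04 without vehicle library 1). Irf1, a factor that acts on a Ciita promoter, rose by 2.11 (SE 0.22, adjusted p = 4.42e-05) and Jak1, a kinase of the receptor, by 0.97 (SE 0.17, adjusted p = 9.47e-04). The call of Ifngr1, a chain of the receptor, was lost when any of 6 libraries was left out (0.83 to 1.51 over all 8), all but vehicle library 1 and panobinostat library 4. Ifng was not analysed here. Of 5 tested myeloid and B-cell regulators of Ciita all 5 rose, with a median of 2.36 (2.89 without vehicle library 1): Bcl6, a repressor, by 2.82 (SE 0.23, adjusted p = 1.28e-05), Irf8 by 2.56 (SE 0.31, adjusted p = 9.19e-05) and Spi1, the myeloid factor PU.1, by 0.97 (SE 0.26, adjusted p = 0.00902). Pax5, a B-cell factor, was too low to be tested and at 0 reads in at least 1 panobinostat library.

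Genes that prepare the groove and the peptide rose with the class II chains. All 9 genes of endosomal processing rose, with a median log2 change of 2.20 (2.30 without vehicle library 1). Ctsb rose by 2.46 (SE 0.19, adjusted p = 1.12e-05) and Ctsd by 2.26 (SE 0.18, adjusted p = 1.12e-05). They encode cathepsins B and D. Cst3, a secreted cathepsin inhibitor, rose by 1.73 (SE 0.15, adjusted p = 1.64e-05). Ctss, the cathepsin that trims the invariant chain in antigen-presenting cells, is a further member of this list, chosen after its value was seen: vehicle libraries held 965 to 2323 reads and panobinostat libraries 4161 to 6401. Many cells besides antigen-presenting cells make these proteases.

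Surface turnover and co-stimulation genes also moved. March1, a ubiquitin ligase that sends class II from the surface to the lysosome, rose by 1.30 (SE 0.45, adjusted p = 0.0304), a call lost without vehicle library 2, 3 or 4 or panobinostat library 2 (0.98 to 1.76 over all 8). March8, a related ligase of wide expression, fell by 0.38 (SE 0.10, adjusted p = 0.00764). Cd83, which opposes March1, rose by 2.38 (SE 0.32, adjusted p = 1.90e-04). Of 5 co-stimulation and checkpoint ligands tested, the 4 that reached 1 CPM in every library rose. Cd86 went from 86 to 172 reads to 463 to 830 (log2 change 2.49, SE 0.26, adjusted p = 4.25e-05) and Cd274 (PD-L1) rose by 2.20 (SE 0.28, adjusted p = 1.23e-04). Vehicle libraries held 6 to 16 reads of Cd80 and panobinostat libraries 32 to 92. It reached 1 CPM in no vehicle library and so passed the filter only through the group where it was high, and its change of 2.74 is a description. Relative to the macrophage mean, 1 of the 9 endosomal and 2 of the 5 co-stimulation genes were called. That count takes either direction, and on that scale 1.83% of all tested genes were called higher and 83.4% lower. Relative to Ptprc, 0 genes of either list were called, beside 1.71% of all tested genes called higher and 78.6% lower.

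**Figure D4:**
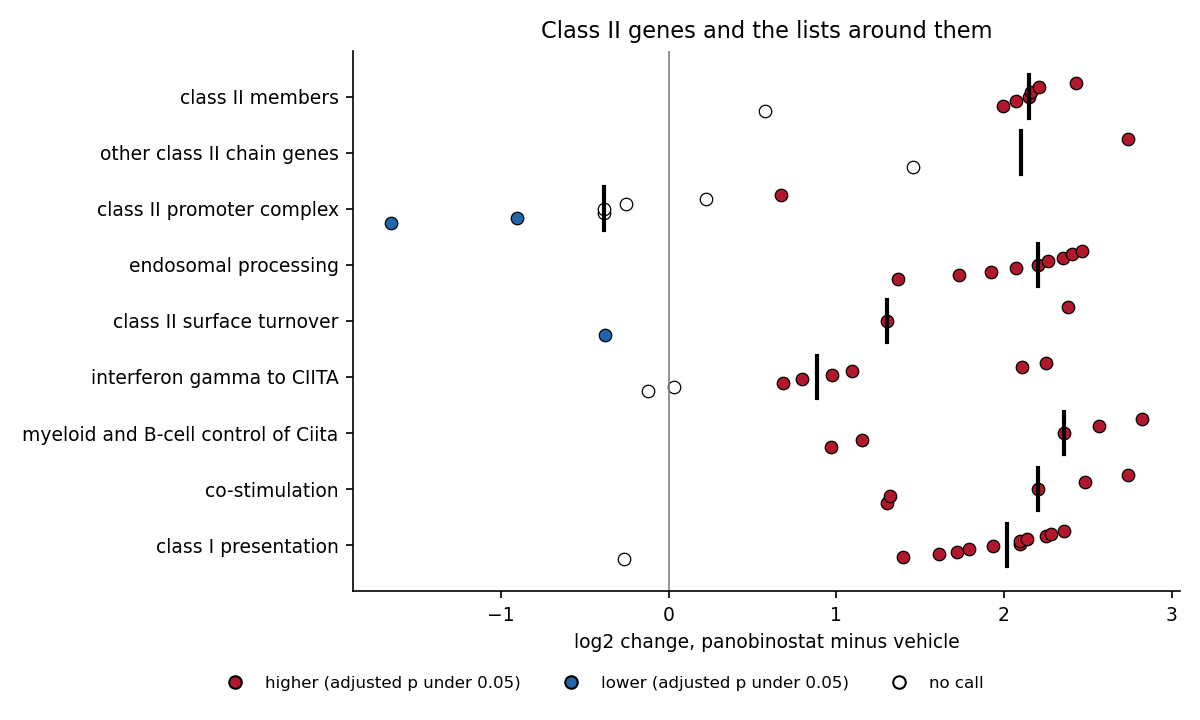
Log2 change with panobinostat (horizontal axis) of each tested gene of the class II members and of the related lists; each point is 1 gene, colour marks the call and vertical bars are list medians. The 9 endosomal genes lie between 1.37 and 2.46, while the 7 promoter-complex genes lie between -1.66 and 0.67.

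MHC class I presentation, which shows peptides from the cytosol on nearly all cells, rose as well. Of its 12 genes 11 rose, with a median log2 change of 2.02, beside 2.15 over the class II members (2.27 and 2.60 without vehicle library 1). The difference between the lists was not tested. Tapbp, which loads peptides on class I, rose by 1.94 (SE 0.16, adjusted p = 1.57e-05), B2m, the shared light chain, by 2.28 (SE 0.26, adjusted p = 7.29e-05) and Psmb8, an immunoproteasome subunit, by 2.14 (SE 0.30, adjusted p = 2.47e-04). Nlrc5, the relative of CIITA that acts on class I promoters, was chosen after its value was seen: vehicle libraries held 75 to 243 reads and panobinostat libraries 356 to 417, and it rose by 1.72 (SE 0.31, adjusted p = 0.00106). Unlike Ciita, its groups did not overlap.

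Most class II genes lie together on chromosome 17, with genes of the class I route among them. From H2-Oa to H2-Ea-ps, 250 kb from start to start, GENCODE M21 annotates 22 genes, of which 14 were in the table and 12 were tested. Of these, 10 rose, H2-DMb2 was not called and Brd2 fell, with a median log2 change of 2.12. Tap1, Tap2, Psmb8 and Psmb9, the peptide transporter and immunoproteasome genes between H2-DMb1 and H2-Ob, rose by 2.10, 2.10, 2.14 and 2.25. The call of H2-Ob was the unsteady one given above. Ciita (0.57) and Cd74 (2.16) lie on other chromosomes.

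**Figure D5:**
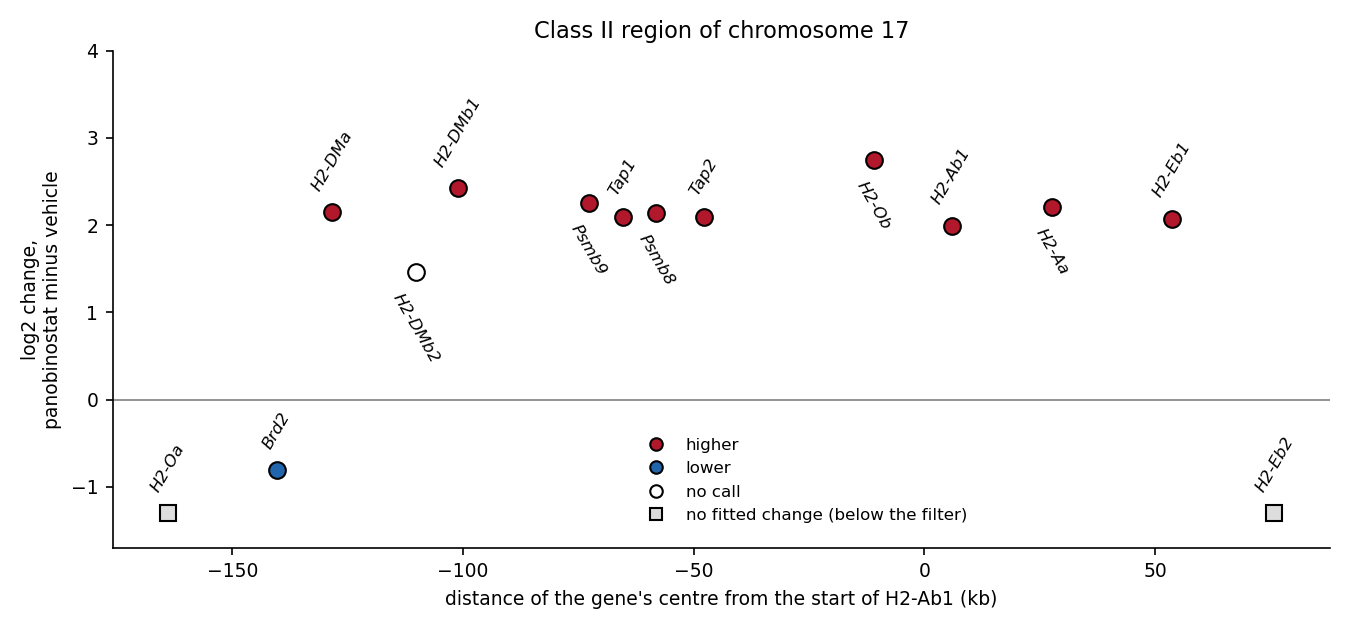
Log2 change with panobinostat (vertical axis) of the 14 listed genes of the class II region, by the distance of the gene's centre from the start of H2-Ab1 in kb (horizontal axis). The 10 genes called higher lie between 1.99 and 2.74, Brd2 is at -0.81, and the squares of H2-Oa and H2-Eb2 mark genes with no fitted change.

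The class II genes varied together across libraries within the groups. After the group means were removed, Pearson's r over the 8 libraries was 0.839 to 0.994 for the 15 pairs of the 6 called genes and 0.866 to 0.975 for Ciita with each of them. These values rest largely on vehicle library 1, in which the members lay 1.37 above their group means on average (log2). Without it the ranges were 0.22 to 0.962 and 0.199 to 0.891. The libraries share treatment group and tumour composition, and the values are a description. The 8 tested genes outside the members with deviations most like theirs, by Pearson's r over 8 libraries, were Rgs14 (0.991), Gimap1 (0.988), Ccnb1ip1 (0.986), Jaml (0.986), Cytip (0.983), Dok2 (0.982), Ikzf1 (0.981) and Plekha2 (0.976). Without vehicle library 1 the r of these genes was 0.798 to 0.968. Of these 8, Cytip (1.28, SE 0.46, adjusted p = 0.0332) and Plekha2 (2.05, SE 0.34, adjusted p = 6.95e-04) rose with panobinostat, and the others were not called. The call of Cytip was lost when any of 6 libraries was left out, all but vehicle library 1 and panobinostat library 4.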

How the data were processed

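RNA-seq libraries of 8 tumours, 4 per group by the labels, were analysed, with 1 library per animal. CASAVA 1.8.2, limma, HTSeq, TopHat2 and the build mm10 appear in the submitters' processing notes. Annotation, normalization and use of strand: not given in the sources used here, so overlapping genes cannot be told apart. The deposited table holds log2 CPM with 0.5 reads added by the authors, as the values show: whole reads were recovered for 100% of values within 0.001 read. A gene's reads here are these recovered counts.

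Genes reaching 1 CPM in 4 or more libraries entered limma 3.58.1 (R 4.3.3), on their deposited log2 values (lmFit, then trended eBayes, two-sided, Benjamini-Hochberg over 16157 genes, threshold 0.05). Ratios of partner genes were tested by exact permutation over the 70 assignments. Python 3.11.15 with pandas 2.3.3 read promoter windows of RefSeq.

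The members, lists and tests were chosen with earlier results of these data known. Named were the members, every other class II chain gene, the 3 genes of each pathway list and 2 of each cell type list with the smallest adjusted p, genes of the class II region and the 8 genes most like the members. Other names are marked, and some genes under the rule are not reported here. Replicate numbers name samples and pair nothing.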

Additional observations from a re-analysis of the deposited data

Results flagged for a closer look

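In 3 of 22 combinations of a gene and a group, 1 library lay apart from its group by Dixon's gap ratio, where about 1 in 20 groups would by chance. All 3 were vehicle library 1, as the highest of 4. The ratio was 0.931 for H2-DMb1, 0.860 for H2-Oa and 0.930 for H2-Ob, above the 95% critical value for 4 samples. That library also held the most B-cell marker reads of the 8.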

How the results depend on the processing

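The alternatives changed the filter, variance model, library weights, scaling, pseudocount, values, tested fold, reference or libraries, 1 at a time. The 3 that left out vehicle library 1 together with another choice were added after seeing the data. Each of the 6 called class II genes kept its direction and call in 21 of 25 alternatives, all but the 4 relative scales, and Ciita its direction and lack of a call in 17 of 24 (a 5 CPM filter left it out). Relative to Ptprc the log2 changes were Cd74 -0.0059, H2-Aa 0.045, H2-Ab1 -0.17, H2-Eb1 -0.091, H2-DMa -0.019, H2-DMb1 0.26 and Ciita -1.59, and without vehicle library 1 they were 0.092, 0.19, -0.12, 0.024, -0.14, 0.25 and -1.50 in the same order. Relative to the macrophage mean they were -0.070, -0.020, -0.24, -0.16, -0.083, 0.20 and -1.66, and without vehicle library 1 they were 0.20, 0.29, -0.013, 0.13, -0.034, 0.35 and -1.40. On each of these 4 scales 1 member, Ciita, was called, with the shared error of the reference described above. Its change was -0.080 with quantile normalization and 1.31 without vehicle library 1 and panobinostat libraries 3 and 4.

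When each library was left out in turn, the log2 change was 1.92 to 2.66 for Cd74, 1.85 to 2.76 for H2-Aa, 1.76 to 2.45 for H2-Ab1, 1.83 to 2.60 for H2-Eb1, 1.96 to 2.43 for H2-DMa, 2.28 to 2.82 for H2-DMb1 and 0.25 to 1.07 for Ciita. The genes called were then 6 to 7 members, 0 to 2 other class II chain genes, 2 to 6 of the promoter complex, 2 to 3 of surface turnover and 5 to 6 of the interferon gamma route. Of the other chain genes, 3 were called with no filter, 2 with read totals, voom on the recovered reads or without vehicle library 1 and panobinostat libraries 3 and 4, and 0 with a 5 CPM filter, quantile normalization, 1 CPM added, the 1.5-fold test, either relative scale or without panobinostat libraries 3 and 4. Of the promoter complex, 7 were called with library weights and on either relative scale, and 5 with quantile normalization or centring on medians. The 1.5-fold test called 1 of surface turnover, 2 of the interferon gamma route and 3 myeloid and B-cell regulators of Ciita. Quantile normalization and the Ptprc scale called 1 of surface turnover. Relative to Ptprc and to the macrophage mean, the counts were 0 and 1 for endosomal processing, 1 and 2 for the regulators of Ciita, and 0 and 2 for co-stimulation. Counts on these scales take either direction, those of the promoter complex included. Of all tested genes 78.6% were called lower relative to Ptprc and 83.4% relative to the macrophage mean. Causes were not tested. No paired analysis was possible because the labels give no shared replicate numbers. The spread of vehicle libraries limits what can be seen: the SE of Ciita was 0.48 with vehicle library 1 and 0.31 without it.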
